A study of Mus musculus with 12 samples.

Results

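The mouse genes for GABA-A receptor subunits were followed in sorted spiral ganglion neurons, the primary auditory neurons that link the cochlea with the brainstem. The 7 genes described, Gabra2, Gabra3, Gabra4, Gabra5, Gabrb1, Gabrb2 and Gabrg3, were chosen by symbol from the 25674 genes of the deposited count table, and all 7 are in it. The filter on low counts passed 5 of them, and Gabra4 and Gabrg3 stayed below it. Another 7 subunit genes of the table serve as a comparison. By the labels, each library was made from 100 neurons carrying the red reporter tdTomato, taken at E14.5 from both inner ears of 1 embryo of either sex. All embryos carried Neurod1Cre, a BAC transgene that makes Cre recombinase under Neurod1 control, and the Cre-dependent Rosa26 tdTomato reporter, on a mixed C57BL/6/sv129 background. The 6 control libraries had only these, and the 6 libraries labelled Isl1CKO also had Isl1loxP/loxP, alleles of the LIM-homeodomain transcription factor gene Isl1 that Cre can recombine. The sample numbers are tagged as technical replicates in the labels, while the design text speaks of biological ones. P-values therefore measure the spread between these libraries, which the labels do not fully describe.

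GABA-A receptors are chloride channels opened by the transmitter GABA, and each is a ring of subunits, most often alpha, beta and gamma. The alpha subunit shapes GABA affinity, kinetics and benzodiazepine response, the beta subunit is needed for assembly and binds GABA together with alpha, and the gamma subunit carries receptors to synapses. Alpha 2, alpha 3 and alpha 5 are typical of immature neurons. In immature neurons GABA often depolarises, because the importer NKCC1 loads the cell with chloride before the exporter KCC2 is made. Spiral ganglion neurons carry GABA-A receptors, and efferent fibres in the cochlea release GABA.

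Total counts ran from 11895603 to 13857480 per library, so that 3 counts, used as a floor, equal 0.216 to 0.252 CPM (counts scaled to a common library size with TMM factors). Isl1 itself stood at 1538 ± 217 CPM in controls and 1391 ± 184 CPM in the libraries labelled Isl1CKO (SD, n = 6 each; log2 fold change -0.15, edgeR quasi-likelihood adjusted p = 0.460). Whole-gene counts may not show the loss of a floxed segment, and reads of that segment were not examined. The Isl1 level therefore shows no loss and does not settle whether the labels are right, which was not tested. Neuron markers summed to 11673 to 14181 CPM in controls and 12226 to 14826 CPM in Isl1CKO libraries, and of 12 tested 4 were called lower (Elavl4, Gata3, Ntrk2 and Ntrk3) and 2 higher (Stmn2 and Neurod1). Isl1CKO 2, 3 and 5 held both Xist (62.9 to 132 CPM) and Y-linked transcripts (35.7 to 87.3 CPM on average over 4 genes). The other 9 libraries showed either Xist or Y-linked transcripts. Transcripts of both sexes in 1 library go against its labelled origin from 1 embryo, so these 3 libraries may be mixed or mislabelled, which was not tested, and the Isl1CKO means over 6 libraries include them. The fold changes of the 5 tested subunit genes are therefore also given without them. Schwann cell and glia markers summed to 31.8 to 185 CPM in controls and 35.0 to 258 CPM in Isl1CKO libraries, and macrophage markers to 1.92 to 396 and 1.46 to 641 CPM, with 0 genes of either list called. Mesenchyme markers summed to 38.4 to 84.3 CPM in controls and 70.3 to 121 CPM in Isl1CKO libraries, and 2 of their 4 tested genes, Tbx18 and Col3a1, were called higher. Of the same list, Pou3f4 and Twist1 were at lower levels in Isl1CKO libraries without a call. Pou3f4 had 34.7 to 77.9 CPM in controls and 4.01 to 42.1 CPM in Isl1CKO libraries (edgeR adjusted p = 0.143). Twist1, which was not tested, had 0.25 to 2.37 and 0 to 0.078 CPM. The other 4 had higher maxima in Isl1CKO libraries than in controls, without a call and with overlap. These were 7.92 against 0.665 CPM for Prrx1 and 2.33 against 0.370 CPM for Col1a1. For Col1a2 they were 9.12 against 2.64 CPM, and for Pdgfra 2.99 against 0.332 CPM. The 7 hair cell markers in the table summed to 503 to 826 CPM in controls and 345 to 656 CPM in Isl1CKO libraries, and of the 5 tested Ccer2 and Pvalb were called lower. Endothelial markers reached 29.7 CPM in Isl1CKO 3, where the range was 0.219 to 5.66 CPM in the other 11 libraries. The part of these cells in the results below was not tested except where a fit with marker levels as covariates is given.

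Alpha subunit genes differ at a codon that background knowledge ties to drug response. Receptors with alpha 2, 3 or 5 have a histidine at this site and are sensitive to classical benzodiazepines, while those with alpha 4 or 6 have an arginine and are not. The coding stretch around it, from GENCODE M21 transcripts on GRCm38, is shown for the 4 alpha genes described, with that codon in capitals.
Gabra2, exon 5 of 10, chr5:71014490-71014522, minus strand: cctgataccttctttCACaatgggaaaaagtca
Gabra3, exon 5 of 10, chrX:72501153-72501185, minus strand: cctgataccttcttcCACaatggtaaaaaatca
Gabra4, exon 4 of 9, chr5:71641137-71641169, minus strand: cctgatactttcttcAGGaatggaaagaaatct
Gabra5, exon 5 of 10, chr7:57488876-57488908, minus strand: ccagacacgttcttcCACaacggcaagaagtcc
The histidine codon CAC stood in Gabra2, Gabra3 and Gabra5, the 3 of these genes that passed the count filter. Gabra4 had the arginine codon AGG and was near the floor in nearly all libraries.

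Of all genes in the table, 14813 were tested, of which 1511 or 10.2% had an adjusted p under 0.05, 5.01% higher and 5.19% lower in Isl1CKO libraries. Of the 5 tested subunit genes 1 was called, Gabra3, which was higher, and 4 were not called. The edgeR test gave an unadjusted p under 0.05 for 4 of the 5, against 3454 of all 14813 tested genes. The DESeq2 Wald test called 3 of the 5, Gabra2, Gabra3 and Gabrb2, against 14.2% of all tested genes. The median log2 fold change of the 5 was 1.11, beside 0.0045 over all tested genes, with 3 positive values of over 1 and 1 negative value below -1. The genes were chosen with earlier results of these data known. These counts and medians are therefore a description and no test of the family. The 2 groups of libraries overlapped for each of the 7 genes, while 6.78% of all tested genes showed no overlap, and 3.13% had every Isl1CKO library above every control. In bulk libraries a change in the number of neurons that express a gene and a change in RNA per neuron cannot be told apart.

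**Figure D1:**
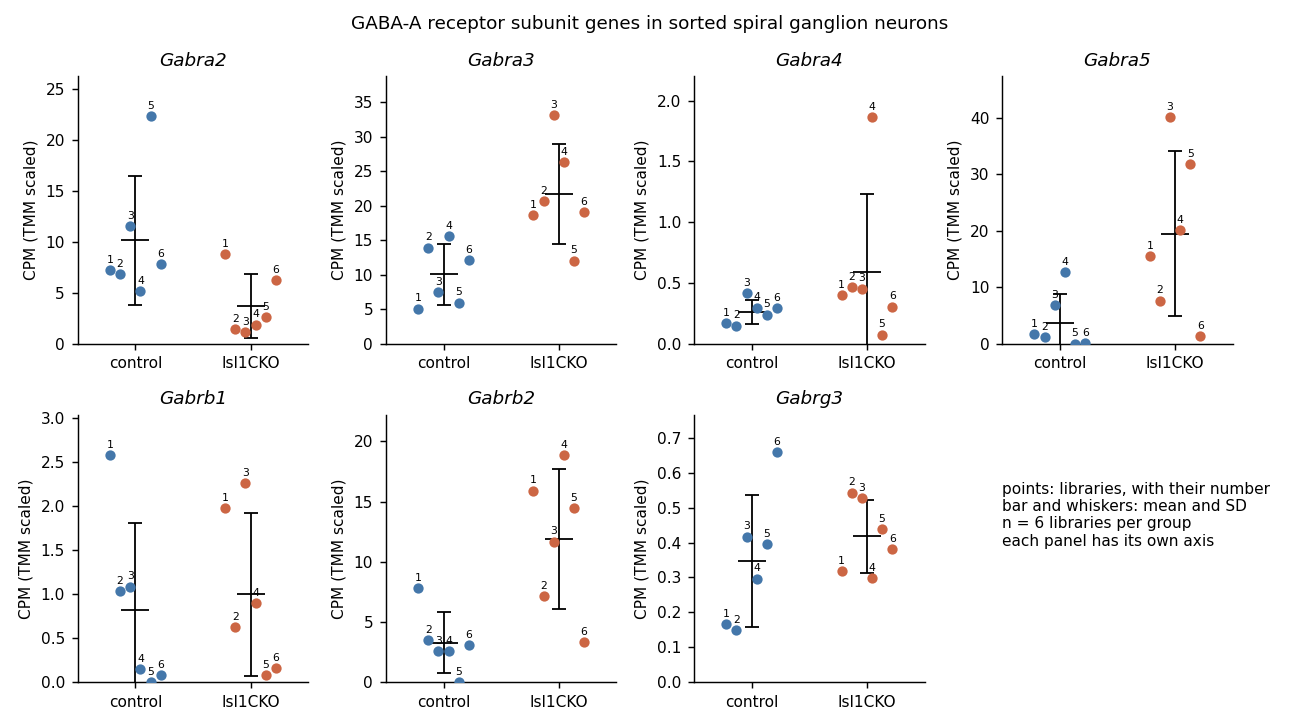
CPM of the 7 subunit genes in each library, with the library number beside its point, and the mean and SD of each group (n = 6). Each panel has its own linear axis from 0. Gabra3 in Isl1CKO libraries lay at 12.0 to 33.2 CPM, with 5 of the 6 above the highest control at 15.6 CPM.

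Gabra3 encodes alpha 3, a subunit common in embryonic neurons, and lies on the minus strand of chrX:72432681-72656848 (ENSMUSG00000031343). Its level ran from 5.07 to 15.6 CPM in controls, with a median of 9.83, and from 12.0 to 33.2 CPM in Isl1CKO libraries, with a median of 19.9. The overlap came from Isl1CKO 5, whose 12.0 CPM lay below controls 2, 4 and 6. The mean was 10.0 ± 4.44 CPM in controls and 21.7 ± 7.26 CPM in Isl1CKO libraries (SD, n = 6 each). Gabra3 rose by 1.11 on the log2 scale (SE 0.31, edgeR adjusted p = 0.0348). The rise kept its sign in 23 of 23 alternatives, at 0.95 to 1.28, but the call was lost in 11 of them. It was lost without any single one of controls 1, 3, 5 or 6, or of Isl1CKO 2, 3, 4 or 6, with edgeR adjusted p from 0.0513 to 0.0766. Without Isl1CKO 2, 3 and 5 its log2 fold change came to 1.08 (edgeR adjusted p = 0.140). In the fit with marker covariates for macrophages and Schwann cells it was 1.16 (edgeR adjusted p = 0.120). Gabra3 is X-linked, and with the Y-linked level as a covariate the edgeR adjusted p was 0.0476.

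Gabra2 encodes alpha 2, the subunit of receptors on axon initial segments and of many early neurons, and lies on the minus strand of chr5:70957597-71095849 (ENSMUSG00000000560). It is the gene of the 5 whose fitted change was negative. Controls held 5.19 to 22.4 CPM, with a median of 7.53, and Isl1CKO libraries 1.13 to 8.79 CPM, with a median of 2.25. In Isl1CKO 2, 3, 4 and 5 Gabra2 was under the lowest control, while Isl1CKO 1 and 6, at 8.79 and 6.25 CPM, lay among the controls. The means were 10.2 ± 6.33 and 3.68 ± 3.13 CPM (SD, n = 6 each), and the log2 fold change was -1.46 (SE 0.53, edgeR adjusted p = 0.102), which did not pass. Control 5, at 22.4 CPM, stood apart from the other controls, and without it the value was -1.07 (edgeR adjusted p = 0.247). Without Isl1CKO 1 it was -1.94 and passed (edgeR adjusted p = 0.0303), and without Isl1CKO 2, 3 and 5 it was -0.85 (edgeR adjusted p = 0.509).

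Gabra5 encodes alpha 5, found mostly in extrasynaptic receptors that carry a tonic current, and lies on the minus strand of chr7:57407672-57510059 (ENSMUSG00000055078). It varied widely within both groups. Controls held 0 to 12.7 CPM, with a median of 1.39, and Isl1CKO libraries 1.30 to 40.2 CPM, with a median of 17.8. Control 5 had 0 counts and control 6 had 1, while controls 3 and 4, at 6.84 and 12.7 CPM, reached into the Isl1CKO range. Isl1CKO 6, at 1.30 CPM, was below 3 of the controls. The means were 3.73 ± 5.06 and 19.4 ± 14.6 CPM (SD, n = 6 each), and the log2 fold change of 2.38 had a standard error of 1.00 (edgeR adjusted p = 0.164), so that it did not pass. Control 4 held the highest control value, and without it Gabra5 came to 3.33 on the log2 scale (edgeR adjusted p = 0.0657). With the Y-linked level as a covariate it was 3.90 (edgeR adjusted p = 0.0545), and without Isl1CKO 2, 3 and 5 it was 1.72 (edgeR adjusted p = 0.550). It shares 148 bases of exon with the antisense gene Gm9962, and whether the authors' counting used strand is not given in the sources used here.

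Gabra4 encodes alpha 4, which in the mature brain joins the delta subunit in extrasynaptic receptors, and lies on the minus strand of chr5:71569749-71658308 (ENSMUSG00000029211). It had 2 to 5 counts in each control and 20 in all, and 47 counts over the Isl1CKO libraries. Of those 47 counts 25 came from Isl1CKO 4, and the other 5 had 1 to 6 counts each. It was not tested, and at this depth a difference could not be shown. Its first exon shares 46 bases with that of Gabrb1 on the other strand, so that reads there could belong to either gene.

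Both beta genes described lie beside alpha genes in the genome. Gabrb2 encodes beta 2, the most widespread beta subunit of the mature brain, and lies on the plus strand of chr11:42419757-42629028 (ENSMUSG00000007653). Controls held 0 to 7.81 CPM, with a median of 2.83, and Isl1CKO libraries 3.28 to 18.9 CPM, with a median of 13.1. Control 5 had 0 counts. Control 1, at 7.81 CPM, exceeded Isl1CKO 2 and 6, and the other 4 Isl1CKO libraries, at 11.7 CPM or more, exceeded every control. The means were 3.26 ± 2.54 and 11.9 ± 5.81 CPM (SD, n = 6 each), with a log2 fold change of 1.87 (SE 0.67, edgeR adjusted p = 0.0976) that did not pass. Without control 5 the log2 fold change was 1.60 and passed (edgeR adjusted p = 0.0447), and without Isl1CKO 2, 3 and 5 it was 1.95 (edgeR adjusted p = 0.280).

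Gabrb1 encodes beta 1 and lies on the plus strand of chr5:71658113-72149037 (ENSMUSG00000029212), head to head with Gabra4. Controls held 0 to 2.58 CPM, with a median of 0.592, and Isl1CKO libraries 0.073 to 2.26 CPM, with a median of 0.759. In both groups 3 libraries had more than 0.8 CPM and the rest ranged down to the floor or below it. The log2 fold change of 0.29 (SE 0.96, edgeR adjusted p = 0.898) was smaller than its error, and its sign turned in 3 of 21 alternatives. Without Isl1CKO 2, 3 and 5 it was 0.30 (edgeR adjusted p = 0.944).

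Gabrg3 encodes gamma 3, a minor gamma subunit, and lies on the minus strand of chr7:56716465-57387188 (ENSMUSG00000055026). It had 2 to 9 counts per control and 4 to 7 counts per Isl1CKO library, 27 and 33 in all. The means were 0.347 ± 0.189 and 0.417 ± 0.104 CPM (SD, n = 6 each), close to the floor, and the gene was not tested.

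Over 14 subunit genes, the 7 described and the 7 for comparison, 8 were tested and 1 was called, Gabra3, against 10.2% of all tested genes. An unadjusted p under 0.05 was found for 5 of the 8, against 3454 of all 14813 tested genes. Of these 5 genes 4 are those already counted among the described genes. The median log2 fold change of the 8 was 0.32, beside 0.0045 over all tested genes. Here too the genes were chosen with earlier results of these data known. Among the 7 for comparison, the gene with an unadjusted p under 0.05 was Gabrq, for the theta subunit, at -2.45 (SE 1.04, edgeR adjusted p = 0.167).

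**Figure D2:**
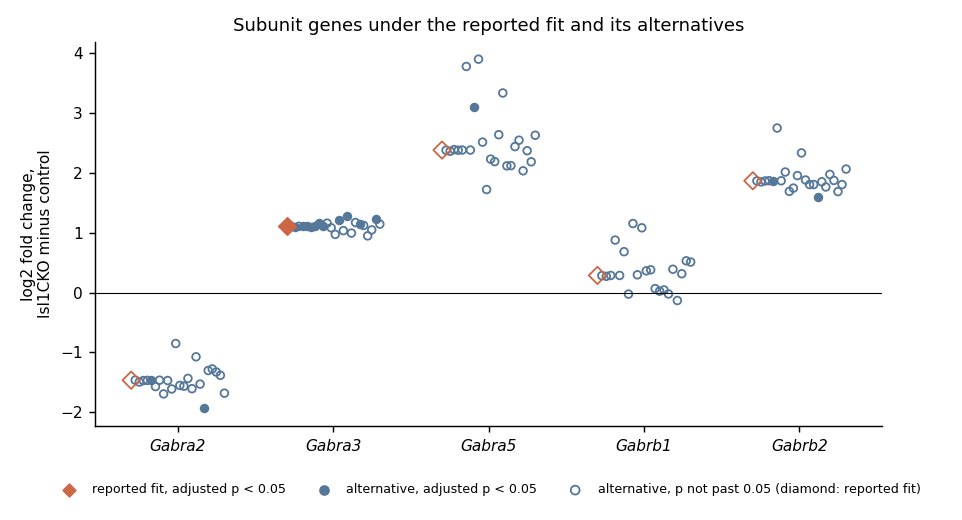
Log2 fold change (Isl1CKO minus control) of the 5 tested subunit genes. Diamonds show the reported edgeR fit, circles its alternatives, and filled symbols an adjusted p under 0.05. Gabra3 stayed between 0.95 and 1.28, while Gabra5 ranged from 1.72 to 3.90 and Gabrb1 crossed 0.

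To compare levels between genes, CPM were divided by the length of each gene's merged exons in kilobases, for the 14 subunit genes. In controls Gabra3 was in place 1 with 2.56 ± 1.13, followed by Gabra2 with 1.33 ± 0.829 and Gabra5 with 1.25 ± 1.70 CPM per kilobase (SD, n = 6 each). These 3 neighbours overlapped within their SD. Gabrb2 came next in controls, at 0.512 ± 0.400 CPM per kilobase, and overlapped with Gabra2 and Gabra5 within their SD. In Isl1CKO libraries Gabra5 was in place 1 at 6.53 ± 4.92 and Gabra3 in place 2 at 5.52 ± 1.85 CPM per kilobase, within each other's SD. Gabrb2 came next at 1.87 ± 0.913 CPM per kilobase, and Gabra2 stood in place 5 at 0.481 ± 0.409. The highest Gabra5 levels, 40.2 CPM in Isl1CKO 3 and 31.8 CPM in Isl1CKO 5, came from libraries with transcripts of both sexes. The order without Isl1CKO 2, 3 and 5 is not given here. Gabra4, Gabrb1 and Gabrg3 were at or below 0.097 CPM per kilobase on average in both groups, in places 8 to 13 of 14. With the length of the longest annotated transcript in place of the merged exons, Gabrb2 in Isl1CKO libraries was at 2.98 CPM per kilobase and Gabra2 was in place 4 there, while the first 3 places were the same in both groups.

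**Figure D3:**
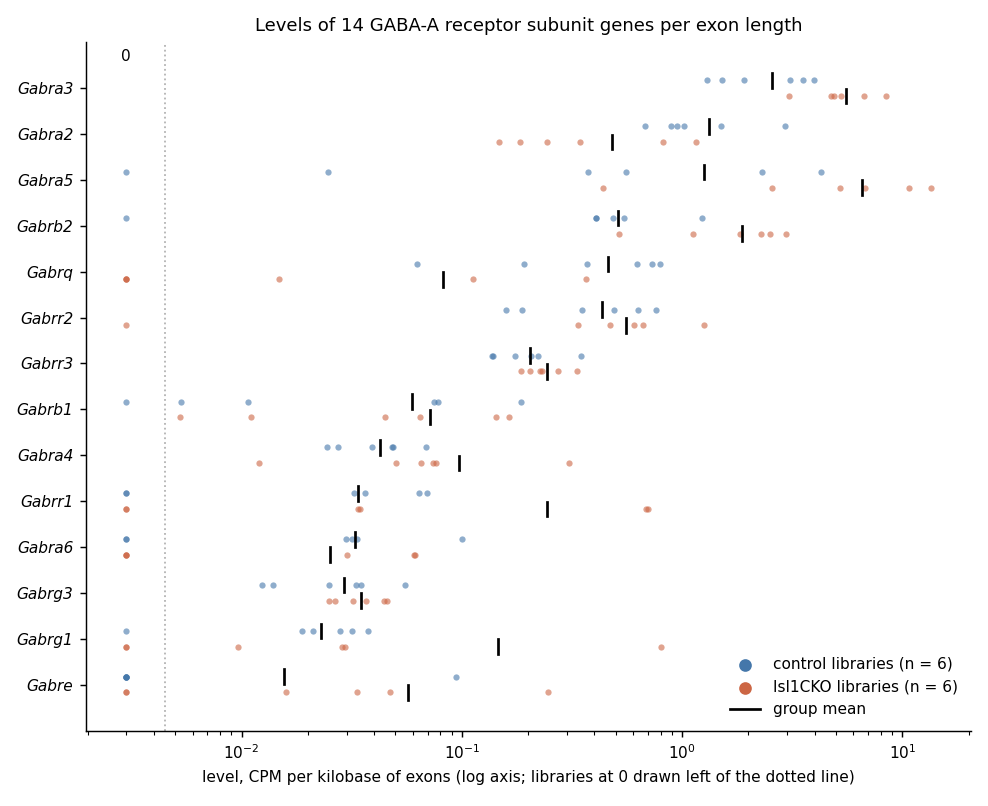
Level of each of the 14 subunit genes per kilobase of merged exons, on a log axis, with 1 point per library and a bar at the group mean. Libraries at 0 are drawn left of the dotted line. Gabra3 is in place 1 in controls and Gabra5 in Isl1CKO libraries, and Gabra2 stands in place 2 in controls and in place 5 in Isl1CKO libraries. These places follow the group means, which include Isl1CKO 2, 3 and 5, the libraries with transcripts of both sexes.

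The mix of alpha genes was read within each library as a share of the level per kilobase summed over Gabra2, Gabra3, Gabra4, Gabra5 and Gabra6. Gabra2 made up 29.0% ± 19.5 of it in controls, from 7.57% to 64.8%, and 5.08% ± 5.24 in Isl1CKO libraries, from 0.664% to 13.1% (SD, n = 6 each). Gabra5 made up 19.1% ± 20.2 in controls and 45.0% ± 23.8 in Isl1CKO libraries. Gabra3 had mean shares of 50.4% ± 18.6 and 48.9% ± 20.1. The leading gene of these 5 was Gabra3 in 3 controls, Gabra5 in 2 and Gabra2 in 1, and among Isl1CKO libraries it was Gabra5 in 4 and Gabra3 in 2. Their summed level was 5.21 ± 2.09 in controls and 12.7 ± 5.66 CPM per kilobase in Isl1CKO libraries, with ranges of 2.86 to 8.97 and 6.24 to 22.3. Libraries led by Gabra5 included Isl1CKO 3 and 5 (60.7% and 75.8%), which hold transcripts of both sexes. So does Isl1CKO 2, led by Gabra3 at 65.2%. In Isl1CKO 1, 4 and 6, which do not, Gabra2 made up 10.3%, 1.74% and 13.1%. These shares are a description and were not tested, and the shares of 1 library sum to the whole, so they cannot move independently.

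**Figure D4:**
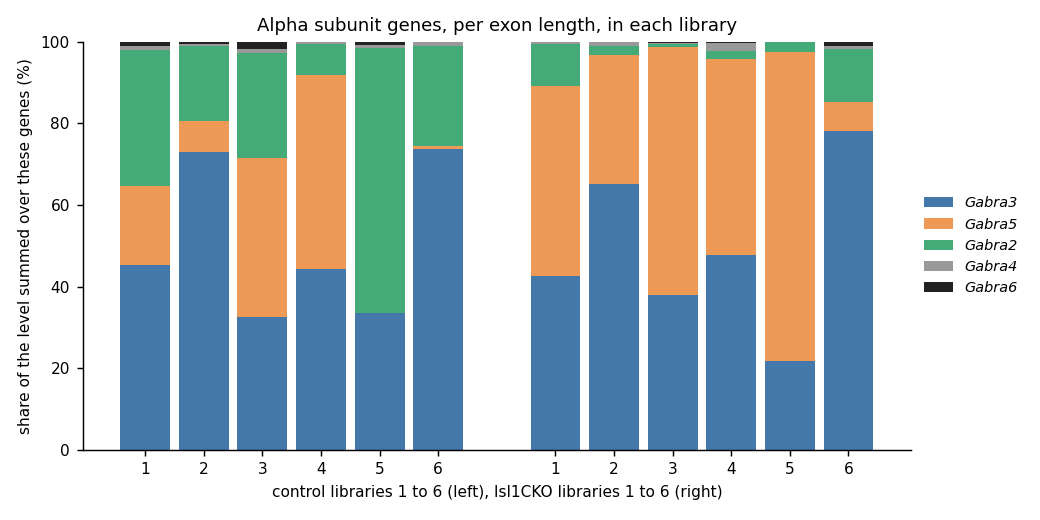
Share (%) of each of 5 alpha genes in their summed level per kilobase, 1 bar per library, controls at the left and Isl1CKO libraries at the right. Gabra2 takes 7.57% to 64.8% of the bar in controls and 0.664% to 13.1% in Isl1CKO libraries.

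The 7 genes lie in 4 clusters of subunit genes in the mouse genome. On chromosome 5, in 1398 kilobases that hold Gabrg1, Gabra2, Gabra4 and Gabrb1, only Gabra2 and Gabrb1 were tested, at -1.46 and 0.29. On chromosome 7 Gabra5 had a log2 fold change of 2.38, while Gabrg3 stayed near the floor. On chromosome 11 Gabrb2 had a log2 fold change of 1.87, and Gabra6 was not tested. On the X chromosome, in 587 kilobases, Gabra3 stood at 1.11 and Gabrq at -2.45. The nearest tested protein-coding genes outside the clusters, from 7.54 kilobases (Commd8) to 1551 kilobases (Ccng1) away, were not called. Atp10a was at a low level, 1.01 ± 1.47 CPM in controls and 1.95 ± 1.86 CPM in Isl1CKO libraries (SD). The log2 fold changes of these neighbouring genes were 0.09 for Gnpda2 and 0.25 for Commd8 around the first cluster, -0.24 for Herc2 and 0.94 for Atp10a around the second, 0.02 for Ccng1 and 0.38 for Pttg1 around the third, and -0.51 for Prrg3 and -0.01 for Cetn2 on the X chromosome (edgeR adjusted p from 0.158 to 0.974).

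The 250 bases before the start sites of Gabra2 and Gabra3 are shown because these 2 alpha genes had fitted changes of opposite sign. They are from the RefSeq promoter table (GRCm38.p6), read 5′ to 3′ on the gene's strand, with matches to TAAT or ATTA, the core letters of many homeodomain sites, in capitals.
Gabra2, chr5:71095850-71096099, minus strand: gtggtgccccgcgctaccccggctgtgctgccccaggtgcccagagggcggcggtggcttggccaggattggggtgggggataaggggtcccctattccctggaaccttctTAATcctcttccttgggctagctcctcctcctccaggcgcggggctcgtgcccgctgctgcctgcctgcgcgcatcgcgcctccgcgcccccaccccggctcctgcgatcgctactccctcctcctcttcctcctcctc
Gabra3, chrX:72656920-72657169, minus strand: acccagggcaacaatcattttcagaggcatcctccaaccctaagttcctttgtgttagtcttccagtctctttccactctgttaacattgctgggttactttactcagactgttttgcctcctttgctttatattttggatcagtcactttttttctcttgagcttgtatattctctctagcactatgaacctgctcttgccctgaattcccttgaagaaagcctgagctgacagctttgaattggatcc
The Gabra2 window had 1 match and 70.0% G and C. Gabra3 has 2 listed starts, and the window shown, which overlaps no annotated exon, had 0 matches and 42.4% G and C. The window of its other start, at chrX:72656808-72657057, overlaps an exon and is not printed. It had 2 matches, which overlap each other, and 39.2% G and C, so both genes have a match in at least 1 window. Among 32851 windows of this length from all genes listed there, 54.9% held TAAT or ATTA on either strand, and their median G and C content was 52.4%. The longer motif CTAATG, or CATTAG on the other strand, was in 6.36% of all windows and in 0 windows of the 7 genes. A match is a description of letters and not a binding site.

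Across the 12 libraries, the genes whose log2 CPM followed each subunit most closely were taken from 9595 well-measured genes. For Gabra3 they were Pdp1, for a pyruvate dehydrogenase phosphatase, with Pearson r = 0.919, and Ramac, with r = 0.903. Within groups, after each group was centred on its mean, these were 0.820 and 0.804. For Gabra2 they were C1qtnf12 (r = 0.906, centred 0.816) and Nudt9 (r = 0.894, centred 0.790). Akap11, for a kinase anchor protein, and Igfbp5, for a binding protein of insulin-like growth factors, followed Gabra5, with r = 0.883 and 0.881 and centred values of 0.858 and 0.811. Gabrb1 was followed by Megf11 (r = 0.863, centred 0.862) and Slc7a14 (r = 0.858, centred 0.854), and Gabrb2 by Gm16973 (r = 0.901, centred 0.843) and Actr3b (r = 0.897, centred 0.823). Among pairs of the 5 tested genes, Gabra5 with Gabrb2 had r = 0.759 (centred 0.602) and Gabrb1 with Gabrb2 had r = 0.573 (centred 0.613). Gabra3 had r = 0.578 with Gabra5 and 0.563 with Gabrb2, but within groups these were 0.225 and 0.193. Gabra2 had negative values with Gabra3 (r = -0.752, centred -0.505), with Gabra5 (r = -0.705, centred -0.486) and with Gabrb2 (r = -0.707, centred -0.488). The points share 12 libraries of unlike cell mixtures, and these values are a description chosen as the highest of many.

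Other genes of GABA signalling were counted in 6 lists that hold 59 genes, 43 of them tested. Of these 7 were called, 5 lower and 2 higher, against 10.2% of all tested genes. Among 19 genes of scaffold and trafficking, all tested, 1 fell and 0 rose, with a median log2 fold change of -0.11. Gphn, which encodes gephyrin, the main scaffold under GABA-A and glycine receptors, had 53.7 ± 10.7 and 58.3 ± 9.45 CPM (SD, n = 6 each; edgeR adjusted p = 0.696). Slitrk3, an adhesion protein of inhibitory synapses, fell by 1.68 on the log2 scale from 63.9 ± 19.5 to 20.0 ± 6.95 CPM, without overlap (edgeR adjusted p = 4.79e-04), and kept its call in all 23 alternatives.

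Of 8 genes for making, packing, uptake and breakdown of GABA, 2 were tested and 1 fell. Abat, the transaminase that breaks GABA down, fell by 0.99 on the log2 scale, from 24.3 ± 6.05 to 12.2 ± 1.78 CPM, without overlap (edgeR adjusted p = 0.00387). Gad1 and Gad2, for the enzymes that make GABA, had at most 5 and 2 counts per library and were not tested. Slc32a1 was not analysed here.

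Of 12 genes for chloride transport 2 fell and 0 rose, and the median log2 fold change was 0.01. Slc12a2, for NKCC1, had 43.8 ± 10.3 CPM in controls and 35.4 ± 11.6 CPM in Isl1CKO libraries (edgeR adjusted p = 0.440), and Slc12a5, for KCC2, had 1.10 ± 0.700 and 1.68 ± 0.550 CPM (SD, n = 6 each; edgeR adjusted p = 0.506). Slc12a7, for the related potassium-chloride cotransporter KCC4, fell by 2.66 on the log2 scale (SE 0.31, edgeR adjusted p = 4.46e-05). It went from 174 ± 35.0 to 27.4 ± 14.8 CPM (SD, n = 6 each), without overlap, and kept its call in all 23 alternatives. Stk39, for the kinase SPAK that phosphorylates these cotransporters, fell by 0.89 on the log2 scale, from 56.1 ± 14.7 to 30.3 ± 4.69 CPM (edgeR adjusted p = 0.00421). Its adjusted p was 0.0869 with the marker covariates and 0.0532 without Isl1CKO 2, 3 and 5.

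In the list of the metabotropic GABA-B receptor, 5 genes were tested and 1 fell. This was Kctd16, for an auxiliary subunit, which fell by 2.90 on the log2 scale from 53.0 ± 14.4 to 7.09 ± 6.98 CPM, without overlap (SD, n = 6 each; edgeR adjusted p = 0.00387). It kept its call in all 23 alternatives, and shares 360 bases of exon with an antisense gene. The receptor subunit Gabbr1 had a log2 fold change of -0.73 that did not pass (edgeR adjusted p = 0.0559). For glycine receptors, the sister family that shares gephyrin, 2 of 5 genes were tested and both rose. Glrb, for the beta subunit that binds gephyrin, rose by 1.87 on the log2 scale from 3.91 ± 1.05 to 14.3 ± 4.88 CPM, without overlap (edgeR adjusted p = 6.15e-04), and was called in all 23 alternatives. Glra2, for the alpha 2 subunit of embryonic glycine receptors, had 0 to 13 counts per control and 0 to 128 counts per Isl1CKO library. It rose by 3.98 on the log2 scale (SE 1.16, edgeR adjusted p = 0.0412), a fitted value that rests on controls near 0, and the call was lost in 15 of 22 alternatives, 10 of which left out a single library: controls 2 to 6 and Isl1CKO 1, 3, 4, 5 and 6.

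**Figure D5:**
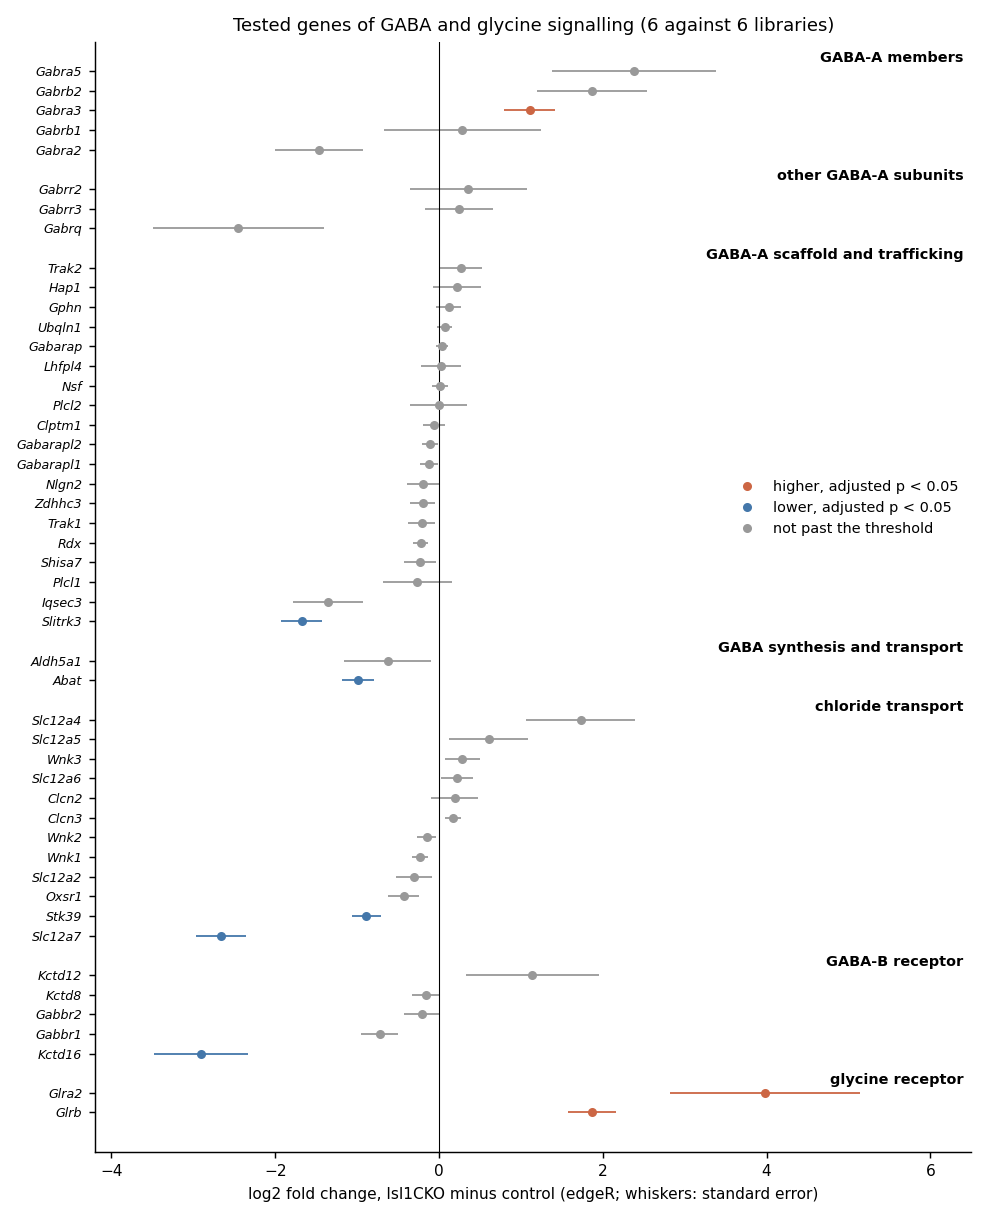
Log2 fold change (Isl1CKO minus control) with its standard error for the tested genes of the subunit family and of 6 GABA and glycine signalling lists. The 7 genes described here are the group at the top, of which 5 were tested. Red marks genes called higher, blue genes called lower and grey genes that did not pass, and the red points are Gabra3, Glra2 and Glrb.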

How the data were processed

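RNA was measured in 12 libraries, 6 per genotype. The authors deposited raw counts for 25674 Ensembl identifiers, of which 25620 had a symbol and 25627 were located in GENCODE M21 (GRCm38). The submitters' processing notes name cutadapt 1.18, Bowtie 1.2.2, STAR 2.7.0c, featureCounts and the build GRCm38.p6, and the strand setting and annotation are not given in the sources used here. Floors (3 counts) cover counting error only, because PCR copies were not told apart by molecular identifiers.

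Genes were filtered with filterByExpr (minimum count 10), scaled with TMM and tested with the robust quasi-likelihood F-test of edgeR 4.0.16 (R 4.3.3) over all 12 libraries without covariates. P-values were adjusted by Benjamini-Hochberg over 14813 genes, with a threshold of 0.05. The standard error is the absolute log2 fold change divided by the square root of F. The pipeline was first tested on simulated data. Alternatives were DESeq2 1.42.0 size factors and Wald test, upper quartile scaling, limma 3.58.1 (voom with sample weights), the test without the filter or with one at a mean of 5 CPM, robust estimation off, the replicate number as a block, covariates for Y-linked and for macrophage and Schwann cell marker levels, the removal of Isl1CKO 2, 3 and 5 together, the longest transcript as gene length, and leaving out every library once.

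The members and lists were chosen with earlier results of these data known. Named genes were the 7 members, Isl1, key genes of GABA signalling (Gphn, Slc12a2, Slc12a5, Gad1, Gad2, Slc32a1), up to 4 called genes per list by smallest p, the nearest tested protein-coding genes beside each cluster, and, for each tested member, the 2 genes with mean log2 CPM of at least 3 most correlated with it over 12 libraries. Gabrq and Gabbr1 fall outside this rule and were named after their values were seen. Log2 CPM for correlations used a prior count of 2. Gabrd, Gabrp, Slc32a1, Atoh1, Cdh5 and the haemoglobin genes were not analysed here. Some other genes of the family and of the lists are not reported here and are left out of the counts.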

Additional observations from a re-analysis of the deposited data

Results flagged for a closer look

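In 2 of the 34 group values checked for the described subunit genes and the other named genes of the lists, 1 library stood far from the other 5, where chance alone gives about 1 in 20. Gabra2 in control 5 was at 22.4 CPM, with the other controls at 5.19 to 11.5 CPM. Gabra4 in Isl1CKO 4 was at 1.87 CPM, with the others at 0.073 to 0.466 CPM.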

How the results depend on the processing

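Of all tested genes 1511 were called, and 2100 by the DESeq2 Wald test. The number was 1376 with no expression filter, 944 with macrophage and Schwann cell marker covariates and 767 without Isl1CKO 2, 3 and 5. It was 1178 to 1517 when each library was left out in turn. Of the 7 subunit genes 5 were tested in the reported fit and 1 was called. With no expression filter, with the marker covariates and without Isl1CKO 2, 3 and 5 the number was 0, by the DESeq2 Wald test 3 (Gabra2, Gabra3 and Gabrb2), and 0 to 2 when each library was left out in turn. In the 6 GABA signalling lists 7 genes were called, and 9 by the DESeq2 Wald test. The number was 6 with the marker covariates and without Isl1CKO 2, 3 and 5, and 6 to 8 when each library was left out. With the replicate number as a block, 1450 genes were called in all, and 2 subunit genes, Gabra3 and Gabra5. Between libraries of the same number, deviations from the group mean correlated at -0.056 to 0.152. For 2 of 6 controls the most correlated Isl1CKO library had the same number. The reported fit does not treat the numbers as pairs. With the longest annotated transcript as the length, 2 of the levels per kilobase moved by more than their SD, Gabra4 in controls to 0.063 and Gabrb2 in Isl1CKO libraries to 2.98. No called value changed sign. Gabra4 and Gabrg3, at 1 to 25 and 2 to 9 counts per library, were too shallow to compare.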
